A study of Mus musculus with 30 samples.

Results

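Hippocampal RNA of mice on the 15% P diet was compared with that of mice on the ChowCR diet, 6 libraries against 6, out of 30 libraries on 5 diets in all. The 12 libraries were taken by their diet labels alone, and no measured value decided which libraries entered. The comparison itself was chosen with earlier results of these data known. The series sets low protein, high carbohydrate feeding beside caloric restriction, so P is read as protein and CR as caloric restriction. The other diets are 5% P, 10% P and Chow.

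The mice of the 15% P group were 3 females and 3 males, and so were those of the ChowCR group, all aged 15 months. Neither the strain, the composition and amount of the diets, the hour of tissue collection nor any genetic change is given in the labels, and each library is described as a biological replicate from the whole hippocampus. The P diets and the chow diets may differ in more than protein, so a difference between 15% P and ChowCR cannot be assigned to protein or to the restriction of intake alone.

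The endoplasmic reticulum (ER) folds secreted and membrane proteins with chaperones such as BiP (Hspa5), calreticulin (Calr) and the disulfide isomerases, and the transcription factors XBP1 and ATF6 raise these genes when folding demand grows. The cytosol has a parallel chaperone system around HSP90 and HSP70, whose genes are driven by heat shock factor 1. Nutrient supply reaches such systems in many tissues through insulin, mTOR and amino acid sensing, and restricted feeding also shifts energy metabolism and clock genes.

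Levels are in FPKM, a unit that divides fragments by transcript length and by library size. No read counts accompany them, so the depth is unknown. Libraries listed 19987 to 21327 transcripts on 15% P and 19681 to 21853 on ChowCR. The test used 4447 transcripts of 3725 genes listed throughout the 30 libraries at 1 FPKM or more on average, and differences are given as log2 of FPKM plus 0.5, 15% P minus ChowCR, which understates the change of low transcripts. Of 11 neuronal markers 10 were tested, and their summed level was 1542 to 1808 FPKM on 15% P and 1439 to 2078 FPKM on ChowCR. Of 14 choroid plexus markers 2 were tested, Ttr and Enpp2, and their sum ran from 38.8 to 6372 FPKM on 15% P and from 55.5 to 7983 FPKM on ChowCR. Of 14 microglial markers 5 were tested, with sums of 889 to 1325 FPKM on 15% P and 920 to 1079 FPKM on ChowCR. No ependymal or thalamic marker passed the filter. The numbers that end the sample titles run from 19.3 to 88.3 on 15% P and from 97.3 to 122.3 on ChowCR. Their meaning is not given, and anything that followed them cannot be told apart from diet. Fewer cells of a type and less RNA per cell also cannot be told apart in whole tissue.

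No transcript passed an adjusted p of 0.05 between 15% P and ChowCR (limma over all 30 libraries with sex as a covariate, Benjamini-Hochberg over 4447 transcripts), so 0% of those tested was called. The 5 transcripts nearest to the threshold were one of Pabpn1 and one of the predicted gene Gm15525, which were lower on 15% P, and Chordc1, Pdia6 and Htra1, which were higher. Gm15525 is named here as part of that count and was at -1.86. Unadjusted p was under 0.05 for 291 transcripts, or 6.54% of those tested, of which 101 (2.27%) were higher and 190 (4.27%) lower on 15% P. The median difference over all tested transcripts was -0.03. After quantile normalization the split was 130 higher and 158 lower, and after median-ratio rescaling 125 higher and 160 lower. Values above 0 made up 44.9% of the differences. The libraries of the diets did not overlap in 41 transcripts (0.922%): in 12 (0.27%) all 6 libraries of 15% P lay above all 6 of ChowCR, and in 29 (0.652%) all lay below. The typical standard error was large beside these differences, with a median of 0.32 over the transcripts tested.

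**Figure D1:**
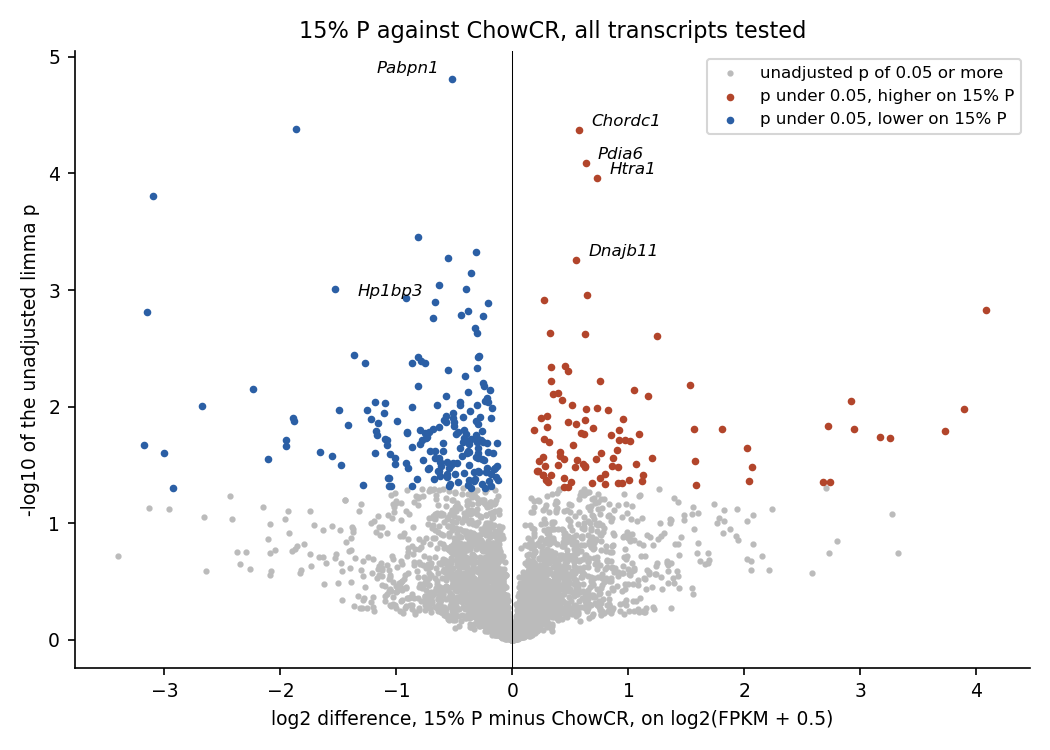
Each point is 1 of the 4447 transcripts tested, with its log2 difference (15% P minus ChowCR) across and the negative log10 of its unadjusted limma p upward. Colour marks the 101 higher and 190 lower transcripts with an unadjusted p under 0.05, and the 6 labelled genes are described in the text.

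Chaperones of the ER had the highest median difference of the lists tested. The lists, including that of cytosolic heat shock genes below, were chosen with earlier results of these data known. Their ranks and counts therefore describe these data and are no independent evidence. Of 26 listed genes 9 were tested, and 7 were higher and 2 lower on 15% P, with a median difference of 0.48, beside a median of -0.03 over all genes tested. Unadjusted p was under 0.05 for 5 of the 9, all higher, where 2.44% of all genes tested (1 transcript per gene) were higher by that rule. None passed the adjusted threshold.

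Pdia6, a protein disulfide isomerase of the ER, had a lowest, median and highest value of 37.6, 41.8 and 43.9 FPKM on 15% P, against 19.6, 26.6 and 32.5 FPKM on ChowCR. The lowest 15% P library stood above the highest ChowCR library. The difference was 0.63 (standard error 0.13, limma adjusted p = 0.091). In GRCm38 its transcript spans 17266545 to 17284770 of chromosome 12 (plus strand), with Atp6v1c2 overlapping on the opposite strand.

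Dnajb11, the ER co-chaperone that serves BiP, had 19.1, 21.1 and 24.5 FPKM as its lowest, median and highest value on 15% P, against 11.4, 14.1 and 17.5 FPKM on ChowCR. These libraries did not overlap either. The difference was 0.55 (standard error 0.14, limma adjusted p = 0.24). The gene lies on chromosome 16 from 22857845 to 22872388, and no other annotated gene overlaps it.

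Xbp1, whose spliced messenger RNA encodes the transcription factor of the unfolded protein response, ranged from 18.3 to 23.4 FPKM on 15% P, with a median of 21.1, and from 13.98 to 18.8 FPKM on ChowCR, with a median of 15.1. In 5 of 6 libraries of 15% P it was above every ChowCR library. Its difference was 0.43 (limma, adjusted p = 0.58). The table does not separate the spliced form that is made on ER stress.

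Manf, a secreted factor induced by ER stress, had a median of 6.17 FPKM on 15% P and 3.85 FPKM on ChowCR. The ranges overlapped because of 1 ChowCR library at 9.61 FPKM, while the other 5 lay between 3.26 and 4.50 FPKM and all 15% P libraries between 5.44 and 8.19 FPKM. Calr, the calcium-binding lectin chaperone, had medians of 99.8 FPKM on 15% P and 76.6 FPKM on ChowCR, and the top 4 libraries of 15% P exceeded all those of ChowCR.

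Both Hspa5 and Pdia3 had a larger standard error than the members above. Hspa5, which encodes BiP, had 28.9, 62.6 and 94.4 FPKM as its lowest, median and highest value on 15% P, against 24.1, 42.4 and 60.8 FPKM on ChowCR, with a difference of 0.59 and a standard error of 0.29. Pdia3, the isomerase that works with calreticulin, had 40.1, 85.6 and 106 FPKM on 15% P, against 30.9, 55.2 and 71.0 FPKM on ChowCR. Both had an unadjusted p just above 0.05 (0.054 for Hspa5 and 0.051 for Pdia3, limma). The members that were lower were P4hb, another disulfide isomerase, at -0.36, and Ppib, an ER prolyl isomerase, at -0.09.

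The ER list kept its direction under each alternative that was run. Its median lay between 0.41 and 0.57 when single libraries were left out and was 0.50 with Ttr, the choroid plexus transcript, as a covariate. It was 0.35 in females and 0.40 in males. Ttr itself ranged from 8.10 to 6001 FPKM on 15% P and from 13.6 to 7513 FPKM on ChowCR.

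**Figure D2:**
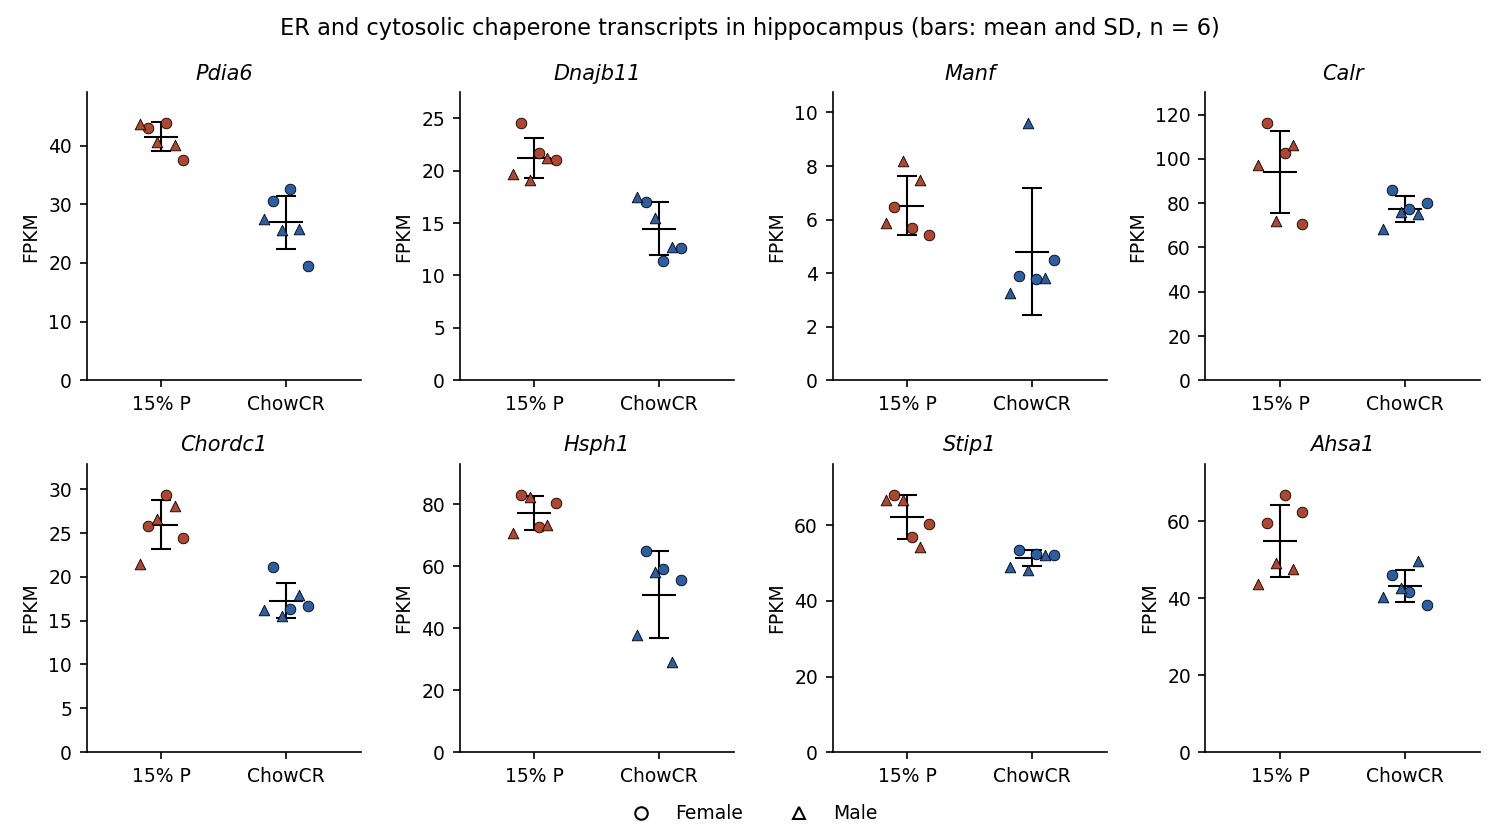
FPKM of 8 chaperone genes in each library of 15% P and ChowCR, with circles for females, triangles for males, and the mean with its SD (n = 6). In Pdia6, Dnajb11, Chordc1, Hsph1 and Stip1 the libraries of the 2 diets do not overlap.

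The promoters of several of these genes hold the known binding motifs of their stress regulators. Promoters were read from RefSeq on GRCm38.p6, from 250 bases before the start site to 50 after it, and searched on both strands for 3 motifs. The ER stress element was CCAAT and CCACG with 9 bases of any kind between, the ER stress element II was ATTGG and CCACG with 1 base between, and the heat shock element was GAA, TTC and GAA with 2 bases between neighbours. The first was found in 0.119% of all 32851 promoters, the second in 0.0365% and the third in 0.603%. Counted by gene, as the lists below are, the shares were 0.137%, 0.0444% and 0.662% of 27025 genes. Of the 9 tested ER genes 8 had a promoter in the table, and the first motif was in those of Pdia6, Hspa5 and Calr and the second in that of Dnajb11. Of the 13 tested heat shock genes 10 had one, and the heat shock element was in Chordc1 and Hsph1. Those without it included Hspa1a, Hspa1b and Dnajb1. A match is a string of letters and does not show that a factor binds there in these animals. The genes were listed as known members of these systems and the sequences are those of the reference genome. Their matches therefore say nothing about the diets.

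The ER windows below are those of the tested ER genes whose promoter holds a motif, shown so that the motifs can be read in place. Each is read 5′ to 3′ on the strand of its gene with the fixed letters of the motif in capitals. They are chr12:17266461-17266539 (plus strand) for Pdia6, chr2:34771995-34772073 (plus strand) for Hspa5, chr8:84847045-84847123 (minus strand) for Calr and chr16:22857844-22857870 (plus strand) for Dnajb11. In Calr the motif is in the reverse orientation. In Dnajb11 it lies just inside the transcript, from position 8 to 18 after the start.
Pdia6: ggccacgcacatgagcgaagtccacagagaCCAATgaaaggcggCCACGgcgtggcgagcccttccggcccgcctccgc
Hspa5: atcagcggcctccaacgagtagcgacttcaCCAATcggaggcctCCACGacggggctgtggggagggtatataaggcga
Calr: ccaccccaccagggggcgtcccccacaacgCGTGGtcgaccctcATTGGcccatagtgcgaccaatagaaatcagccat
Dnajb11: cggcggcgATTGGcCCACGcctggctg

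The heat shock windows are shown for the 2 cytosolic genes that both hold the motif and separated the diets. They are chr9:18292260-18292288 (plus strand) for Chordc1, where 3 overlapping matches form one run of alternating units, and chr5:149636280-149636308 (minus strand) for Hsph1. Capitals mark the GAA and TTC units.
Chordc1: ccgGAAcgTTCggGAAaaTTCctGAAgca
Hsph1: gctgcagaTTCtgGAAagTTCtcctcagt

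The tested cytosolic heat shock genes leaned the same way, though Hsp90aa1, Hsp90ab1 and Hspa8 were not among them. Summed FPKM over all 30 libraries differed by -1.60 for Hsp90aa1 (standard error 1.01) and by 0.28 for Hsp90ab1 (standard error 0.54). Hspa8 was listed in 0 libraries of 15% P and 1 of ChowCR, with a difference of -0.99. The counts that follow therefore hold for the tested genes alone. Of 25 listed genes 13 were tested, and 12 were higher and 1 lower on 15% P, with a median difference of 0.29. Unadjusted p was under 0.05 for 4 of the 13, all higher, where 2.44% of all genes tested were higher by that rule. In 3 the libraries did not overlap, where 0.966% of all genes tested did not overlap in either direction. None passed the adjusted threshold.

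Chordc1, an HSP90 co-chaperone also called morgana, had 21.5, 26.2 and 29.4 FPKM as its lowest, median and highest value on 15% P, against 15.6, 16.5 and 21.1 FPKM on ChowCR. All 6 libraries of 15% P lay above all 6 of ChowCR, though the closest pair nearly met. The difference was 0.57 (standard error 0.12, limma adjusted p = 0.063). It passed the threshold after median-ratio rescaling (limma, adjusted p = 0.034), with array weights (0.047) and among transcripts above 0 in every library (0.047), and not in the other 26 alternatives. Its transcript spans 18292125 to 18317442 of chromosome 9 (plus strand), with the predicted gene Gm19178 on the opposite strand.

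Stip1, the adaptor that joins HSP70 to HSP90, ranged from 54.2 to 68.2 FPKM on 15% P and from 48.2 to 53.4 FPKM on ChowCR. The difference was small, 0.27 (standard error 0.07, limma adjusted p = 0.30), yet no libraries overlapped. Ahsa1, which stimulates the ATPase of HSP90, had medians of 54.4 FPKM on 15% P and 42.1 FPKM on ChowCR, and its difference was 0.58 in females and 0.08 in males. Hsf1, the heat shock factor itself, had medians of 4.66 FPKM on 15% P and 3.17 FPKM on ChowCR.

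Hsph1, a large HSP70-like exchange factor, had 70.6, 76.8 and 83.1 FPKM as its lowest, median and highest value on 15% P, against 28.9, 56.8 and 65.0 FPKM on ChowCR. The libraries did not overlap, but the standard error was 0.59 beside a difference of 0.65, in a fit that shares 1 spread over all diets, where libraries of 5% P and Chow reached down to 6.16 and 2.86 FPKM. With the 12 libraries fitted alone its standard error was 0.16. Of the near-identical copies Hspa1a and Hspa1b, between which reads can be split, the first was at 0.81 and the second at -0.48, and both had libraries listed at 0. Without ChowCR replicate 6 Hspa1a was at 0.27, and without 15% P replicate 3 Hspa1b was at 0.18. Hspa4, St13, Dnajb1, Cryab, Dnajb4 and Cacybp were higher by 0.04 to 0.35 on 15% P, all with an adjusted p of 0.88 or more (limma). St13 and Dnajb4 were lower on 15% P in females alone (St13 at -0.32, and at 0.14 without ChowCR replicate 6), and Dnajb1 and Cacybp in males alone.

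Some members of both lists failed the filter because some library of another diet did not list them. A fit restricted to the 12 libraries, added after the data had been seen, covered 5388 transcripts and called none (limma, smallest adjusted p = 0.19). Unadjusted p was under 0.05 for 340 (6.31%), of which 123 (2.28%) were higher and 217 (4.03%) lower on 15% P, and 50 (0.928%) did not overlap. It took in 80 transcripts of listed genes that the wider fit had left out, of which 12 had an unadjusted p under 0.05. Those named from here on in connection with that fit were singled out after their values were seen.

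The third smallest p of that fit belonged to Sdf2l1, an ER protein that forms a complex with DNAJB11 and keeps clients of BiP soluble. It had 5.92, 7.76 and 8.99 FPKM as its lowest, median and highest value on 15% P, against 2.999, 4.02 and 5.17 FPKM on ChowCR, with no overlap. The difference was 0.86 (standard error 0.15, limma over the 12 libraries, adjusted p = 0.27). Over all 30 libraries, with a library that did not list it counted as 0, the difference was the same and its standard error was larger, at 0.56 (adjusted p = 0.86, limma). Hspa4l, an HSP70 relative of the cytosol, had medians of 19.2 FPKM on 15% P and 16.6 FPKM on ChowCR. Among other genes of the ER, the summed FPKM over all 30 libraries differed by -0.49 for Herpud1 (standard error 0.66). It differed by 0.39 for Hsp90b1 (standard error 0.42) and by 1.15 for Hyou1 (standard error 1.14). Summed FPKM of Canx averaged 0.77 on 15% P and 0.73 on ChowCR.

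Outside the chaperone lists, Htra1, a secreted serine protease, was the protein-coding transcript nearest to the threshold among those higher on 15% P. It had 49.7, 56.3 and 60.3 FPKM as its lowest, median and highest value on 15% P, against 25.9, 27.8 and 52.0 FPKM on ChowCR, and 4 of 6 libraries of 15% P lay above every ChowCR library. The difference was 0.73 (standard error 0.16, limma adjusted p = 0.097), and without ChowCR replicate 1 it was 0.85 and passed (adjusted p = 0.043). Ntrk2, the receptor of brain-derived neurotrophic factor, had medians of 32.5 FPKM on 15% P and 26.002 FPKM on ChowCR. Chchd3, a protein of the mitochondrial inner membrane, was at 0.33, and Msmo1, an enzyme of cholesterol synthesis, at 0.80 with medians of 38.0 FPKM on 15% P and 27.4 FPKM on ChowCR. Far1, Gripap1, Pnisr and Rbm39 were higher in transcripts annotated as retained introns or non-coding, and the summed FPKM of Far1 and Gripap1 was lower on 15% P (-0.11 and -0.53).

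The smallest p of all belonged to Pabpn1, the nuclear poly(A)-binding protein that sets the length of poly(A) tails. Its transcript ENSMUST00000022808.11 had 19.5, 23.8 and 27.9 FPKM as its lowest, median and highest value on 15% P, against 32.3, 34.3 and 36.5 FPKM on ChowCR. The lowest ChowCR library stood above the highest 15% P library. The difference was -0.52 (standard error 0.10, limma adjusted p = 0.063). It passed at a minimum mean of 5 FPKM (adjusted p = 0.038), with no minimum (0.038), among transcripts above 0 in every library (0.047), with array weights (0.046), without 15% P replicate 2 (0.034) and without 15% P replicate 6 (0.040).

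The gene's other main transcript gave another value, and the difference between the transcripts was not tested. This second Pabpn1 transcript, ENSMUST00000116476.6, averaged 47.1 ± 3.26 FPKM on 15% P and 47.0 ± 6.02 FPKM on ChowCR (SD, n = 6 each), and the sum over the gene differed by -0.19 (standard error 0.06, limma adjusted p = 0.64). Both transcripts lie on chromosome 14 from 54894148, the first to 54898169 and the second to 54898156, so their spans overlap almost end to end and the split between them rests on the authors' estimate. Gm20521 overlaps both.

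Of 15 tested genes of poly(A) binding and splicing 5 were higher and 10 lower on 15% P, with a median of -0.08. Unadjusted p was under 0.05 for 1 in each direction, Rbm39 at 0.51 and Hnrnpr at -0.72, both in transcripts annotated as retained introns. Of all genes tested 2.44% were higher and 4.4% lower by that rule. Further transcripts among the 12 lower ones with the smallest p follow by name, as single transcripts. Hp1bp3, a heterochromatin-binding protein, had 7.20, 8.45 and 9.76 FPKM as its lowest, median and highest value on 15% P, against 11.1, 14.1 and 18.3 FPKM on ChowCR, with no overlap. The difference was -0.66 (limma, adjusted p = 0.30), but that of the gene's summed FPKM was -0.26. Cdc40, a splicing factor, was at -0.56 with medians of 8.47 FPKM on 15% P and 12.1 FPKM on ChowCR. Rbm42, an RNA-binding protein, was at -0.68 in the transcript with non-overlapping libraries and at -0.17 for the gene's sum.

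Other lower transcripts had varied roles. Snhg20, a long non-coding RNA that hosts a small nucleolar RNA, was at -0.81, with 3.87 to 9.12 FPKM on 15% P and 10.7 to 13.2 FPKM on ChowCR. Sox12, a transcription factor, was at -0.40, with 3.04 to 4.16 FPKM on 15% P and 4.32 to 7.13 FPKM on ChowCR. Neither gene's libraries overlapped. Klhl21, an adaptor of a ubiquitin ligase, Igsf8, a neuronal membrane protein, and Bre, a subunit of DNA repair complexes, were at -0.44, -0.25 and -0.31, with overlap of a few libraries. Fam168b was at -0.92 in a transcript of up to 3.52 FPKM on 15% P and at least 4.06 FPKM on ChowCR, and its summed FPKM differed by 0.04.

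Map1s, a microtubule-associated protein that also binds autophagy factors, had 8.46, 11.6 and 13.5 FPKM as its lowest, median and highest value on 15% P, against 13.2, 14.6 and 16.3 FPKM on ChowCR. In 5 of 6 libraries of 15% P it was below every ChowCR library. The difference was -0.39 (standard error 0.11, limma adjusted p = 0.31).

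**Figure D3:**
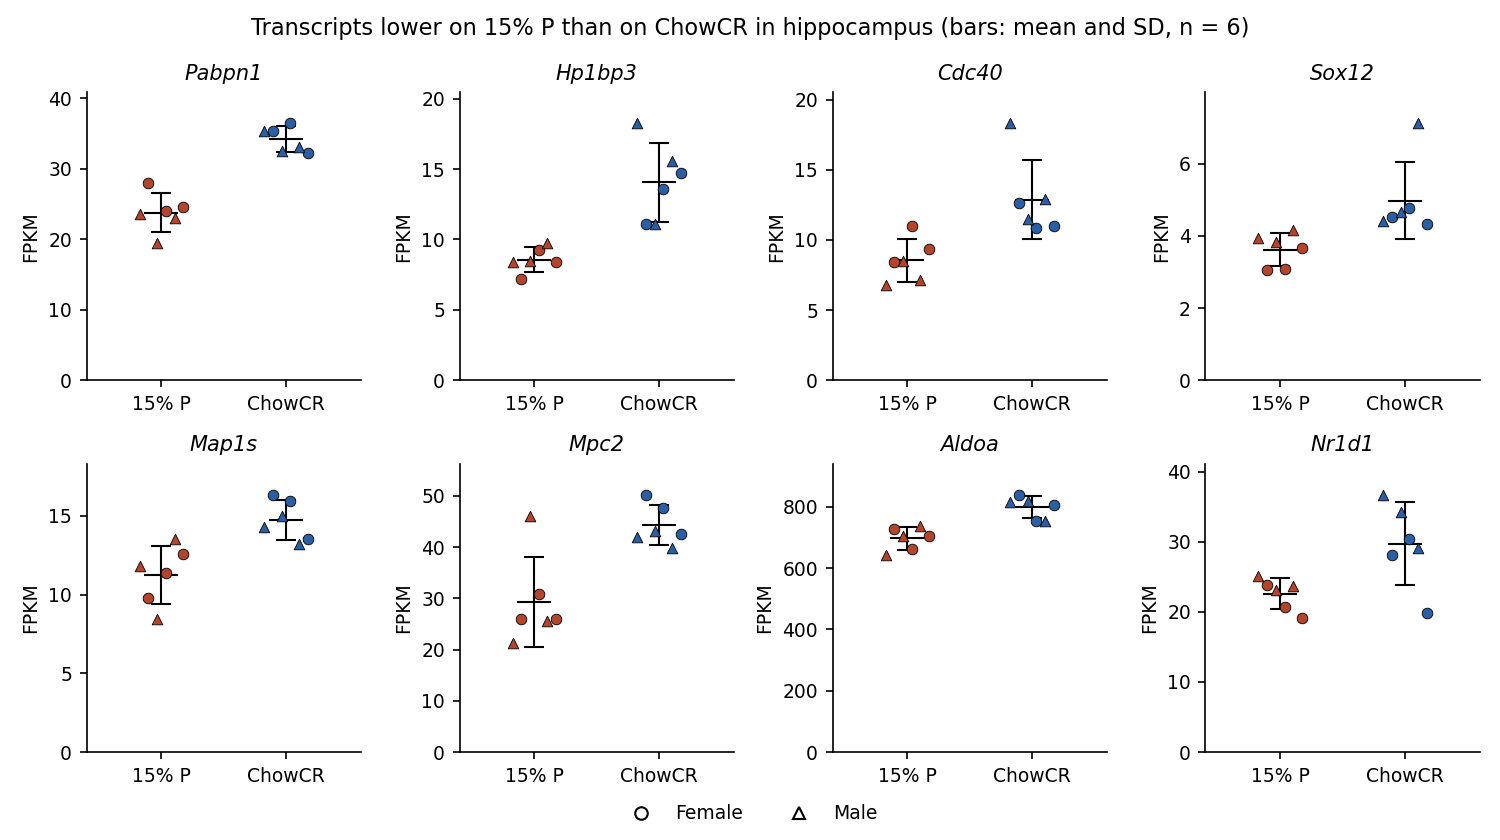
FPKM of 8 genes in each library of 15% P and ChowCR, with circles for females, triangles for males, and the mean with its SD (n = 6); for Pabpn1 the transcript ENSMUST00000022808.11 is drawn. In Pabpn1, Hp1bp3, Sox12 and Aldoa every 15% P library lies below every ChowCR library.

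A few transcripts of energy metabolism were lower on 15% P. Aldoa, a glycolytic aldolase, had 644, 705 and 738 FPKM as its lowest, median and highest value on 15% P, against 754, 810 and 840 FPKM on ChowCR. The libraries did not overlap. The difference was -0.20 (standard error 0.07, limma adjusted p = 0.58), and -0.06 after quantile normalization. Of 9 glycolytic genes tested 5 were higher and 4 lower. Aldoc, another aldolase of that list, averaged 246.5 FPKM on 15% P and 245.9 FPKM on ChowCR.

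Proteins that bring pyruvate into mitochondrial oxidation were among them. Mpc2, a subunit of the mitochondrial pyruvate carrier, had 21.2, 25.9 and 46.0 FPKM as its lowest, median and highest value on 15% P, against 39.8, 42.9 and 50.3 FPKM on ChowCR. In 5 of 6 libraries of 15% P it was below every ChowCR library, and the difference was -0.63 (standard error 0.17, limma adjusted p = 0.30). Dlat, the acetyltransferase of pyruvate dehydrogenase, had medians of 6.06 FPKM on 15% P and 9.92 FPKM on ChowCR. Of 16 genes of the tricarboxylic acid cycle and pyruvate entry 6 were higher and 10 lower, with a median of -0.04.

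Of 47 genes of oxidative phosphorylation 13 were higher and 34 lower on 15% P, with a median of -0.07, beside 44.5% of all genes tested higher. In 1 of them unadjusted p was under 0.05, Ndufa6, a subunit of complex I, at -0.31 and at -0.16 without 15% P replicate 6. By that rule 4.4% of all genes tested were lower. Acat1 and Acot7, which handle acetoacetyl-CoA and fatty acyl-CoA, were at -0.34 and -0.38 among 8 genes of ketone and fatty acid oxidation, of which 3 were higher and 5 lower.

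The lists of growth signalling genes had small median differences, though single members differed by more. All 7 tested genes of insulin and IGF signalling were lower on 15% P, with a median of -0.17 and a range from -0.81 to -0.00, and none had an unadjusted p under 0.05. All 7 tested genes of mTOR and translation control were lower as well, with a median of -0.07. Of 8 targets of ATF4, the factor raised by amino acid shortage, 5 were higher and 3 lower with a median of 0.04, and amino acid transporters split 5 and 5. Yars, which charges transfer RNA with tyrosine, was at -0.38 among 7 synthetases of which 3 were higher and 4 lower.

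Proteasome genes were mostly lower. Of 16 proteasome genes 4 were higher and 12 lower on 15% P, with a median of -0.09. Unadjusted p was under 0.05 for 3, the core subunits Psmb4 at -0.24, Psma7 at -0.28 and Psmb2 at -0.24, where 4.4% of all genes tested were lower by that rule. Of 20 autophagy and lysosome genes 13 were higher and 7 lower, with a median of 0.03. Gabarapl1, a protein of the autophagosome membrane, ranged from 38.0 to 224 FPKM on 15% P and from 39.2 to 43.9 FPKM on ChowCR, so 3 of 6 libraries of 15% P stood above every ChowCR library and 1 below.

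Clock genes held the transcript with the smallest p of the fit restricted to the 12 libraries. Dbp, a transcription factor driven directly by the clock, had in its transcript ENSMUST00000080885.7 a lowest, median and highest value of 9.42, 11.021 and 13.0 FPKM on 15% P, against 15.3, 23.7 and 26.8 FPKM on ChowCR, with no overlap. The difference was -0.96 (standard error 0.15, limma over the 12 libraries, adjusted p = 0.19), and for the gene's summed FPKM over all 30 libraries it was -0.92 (limma, adjusted p = 0.51). The libraries that listed that transcript had medians of 8.04 FPKM on 5% P, 11.4 FPKM on 10% P and 10.7 FPKM on Chow.

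Nr1d1, the clock repressor REV-ERB alpha, had 19.2, 23.4 and 25.1 FPKM as its lowest, median and highest value on 15% P, against 19.8, 29.8 and 36.7 FPKM on ChowCR. Of the 6 ChowCR libraries 5 lay above every 15% P library and 1 within their range. The difference was -0.37 (limma, adjusted p = 0.58), and Thra on the other strand overlaps the gene. Of 10 clock genes tested 4 were higher and 6 lower, with a median of -0.18. In that count Dbp is represented by another transcript, ENSMUST00000155439.1, which averaged 0.95 FPKM on 15% P and 1.51 FPKM on ChowCR. The hour at which tissue was taken is not given for either diet, and its part in these values was not tested.

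Of 4 listed cold-responsive genes Rtn3 alone passed the filter, a reticulon whose messenger RNA is a known target of the cold-induced protein RBM3. It ranged from 12.8 to 197 FPKM on 15% P, with a median of 42.9, and from 53.3 to 226 FPKM on ChowCR, with a median of 180. Its difference was -1.42 (standard error 0.54, limma adjusted p = 0.58). Rbm3 was listed in 3 libraries of 15% P and 6 of ChowCR, and its summed FPKM reached 9.29 on 15% P and 14.7 on ChowCR at the highest. Cirbp, which encodes a cold-inducible RNA-binding protein, was listed in 6 libraries of each diet. Its summed FPKM averaged 5.48 on 15% P and 5.49 on ChowCR, with a log2 difference of -0.47 (standard error 0.67).

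Among genes of the synapse, 3 of 14 tested genes of the postsynaptic density had an unadjusted p under 0.05, all lower on 15% P. By that rule 4.4% of all genes tested (1 transcript per gene) were lower. Camk2b, the beta subunit of the calmodulin-dependent kinase of the postsynaptic density, had 156, 177 and 205 FPKM as its lowest, median and highest value on 15% P, against 193, 216 and 241 FPKM on ChowCR. In 5 of 6 libraries of 15% P it was below every ChowCR library, with a difference of -0.29 (limma, adjusted p = 0.49). Camk2a, the alpha subunit, was at -0.18, and Nlgn3, a synaptic adhesion protein, at -0.43. Of 14 postsynaptic genes 5 were higher and 9 lower, with a median of -0.05.

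Fos, an immediate early gene raised by neuronal activity, had medians of 10.9 FPKM on 15% P and 14.6 FPKM on ChowCR, and its difference was -1.32 in females and -0.00 in males. Without 15% P replicate 4, a female at 2.99 FPKM, the female difference was -0.75 and that over both sexes -0.37, against -0.66 with it. Of 16 immediate early genes 6 were higher and 10 lower. Synaptic vesicle genes split 9 higher and 10 lower, glutamate receptor genes 3 higher and 6 lower, and genes of GABA synthesis, transport and reception 7 higher and 6 lower. Grm3, a metabotropic glutamate receptor, was at 0.26, and Npy, the neuropeptide, was at -0.27 with medians of 41.1 FPKM on 15% P and 55.7 FPKM on ChowCR.

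Glial markers differed singly. Gfap, the astrocyte intermediate filament, averaged 107 ± 8.05 FPKM on 15% P and 106 ± 13.3 FPKM on ChowCR (SD, n = 6 each). Sox9, an astrocyte transcription factor, had medians of 3.26 FPKM on 15% P and 4.83 FPKM on ChowCR, while 6 of 9 astrocyte markers were higher, 4 of them by 0.014 or less. Gja1, the gap junction protein of astrocytes, had the largest difference of that list, -2.43 (standard error 1.23, limma adjusted p = 0.77). Its values fell into a low and a high set within each diet, from 1.398 to 61.8 FPKM on 15% P and from 1.57 to 60.75 FPKM on ChowCR, with medians of 1.51 FPKM on 15% P and 51.8 FPKM on ChowCR. Tmem119, a microglial membrane protein, was at 0.90 and was lowest in ChowCR replicate 4 at 0.28 FPKM, without which the difference was 0.33. All 5 microglial markers tested were higher on 15% P with a median of 0.11. Olig1, of the oligodendrocyte lineage, was at -2.93 with a standard error of 1.42 and had 15% P libraries listed at 0. Of 9 oligodendrocyte and myelin markers tested 4 were higher and 5 lower on 15% P, with a median of -0.04. Apoe, the lipid carrier of glia, had medians of 599 FPKM on 15% P and 655 FPKM on ChowCR.

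**Figure D4:**
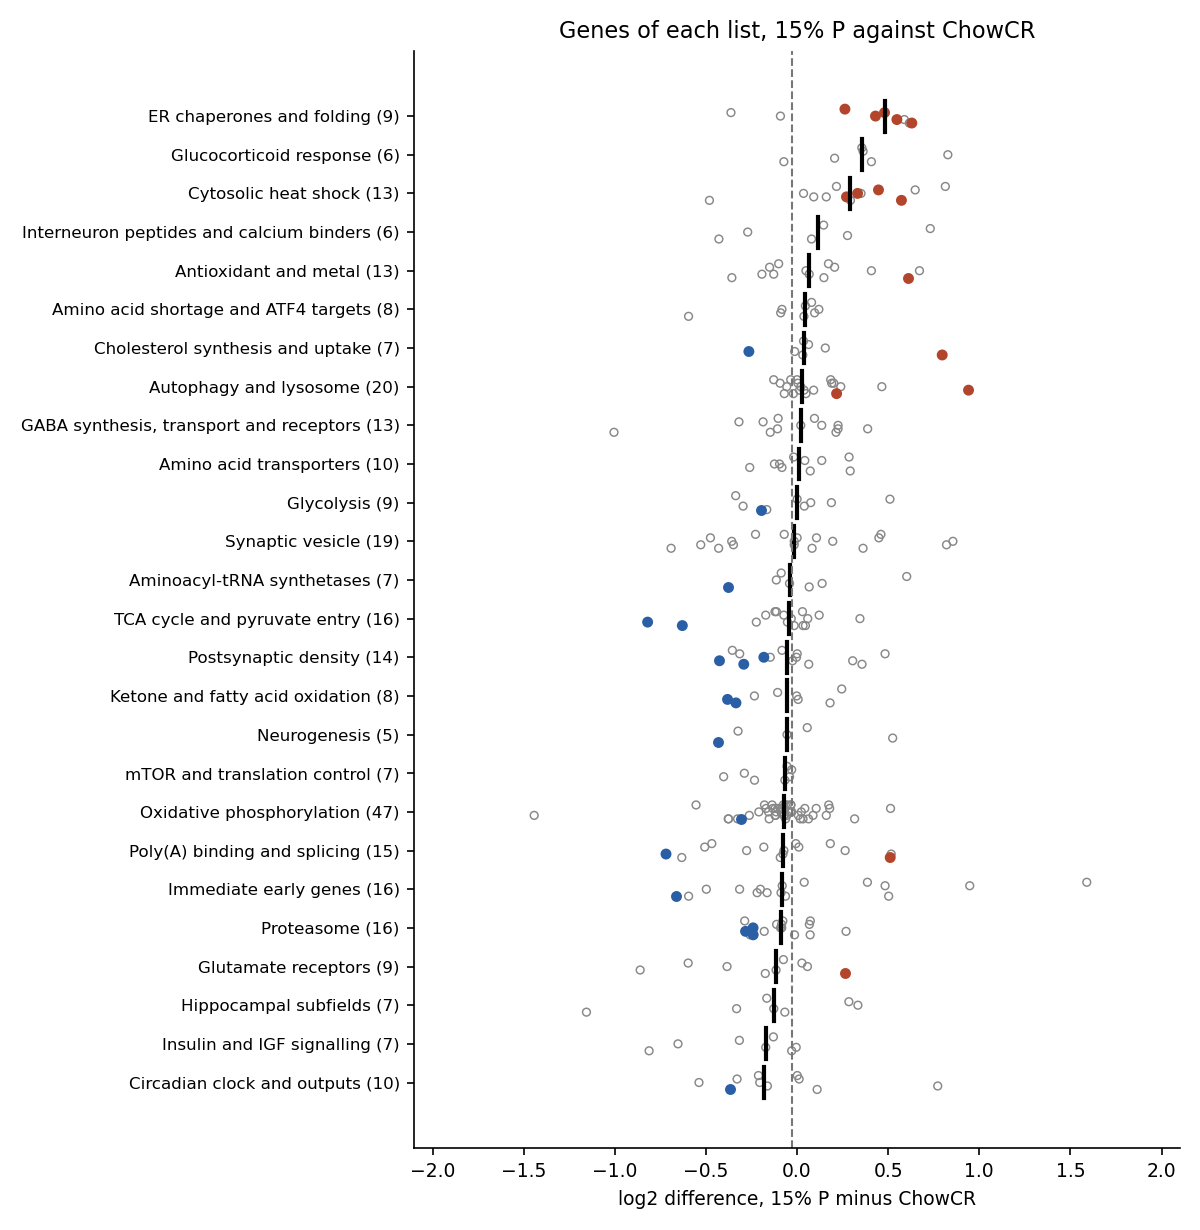
Log2 difference (15% P minus ChowCR) of each tested gene in the lists with at least 5 tested members, whose number stands in brackets. Filled points have an unadjusted p under 0.05, short bars are list medians, and the dashed line is the median of all transcripts (-0.03); ER chaperones (0.48) and cytosolic heat shock genes (0.29) lie to its right.

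No transcript passed the test of whether the difference depended on sex (limma, interaction, smallest adjusted p = 0.40), with 241 transcripts (5.42%) at an unadjusted p under 0.05. Pdia6 differed by 0.61 in females and 0.65 in males, Chordc1 by 0.55 in females and 0.60 in males, and Pabpn1 (ENSMUST00000022808.11) by -0.44 in females and -0.61 in males. Hspa5 differed by 0.10 in females and 1.08 in males (interaction, unadjusted p = 0.10, limma), and Dnajb11 by 0.71 in females and 0.39 in males. Of 6 glucocorticoid-responsive genes, which follow the adrenal stress hormone, 5 were higher, and their median was 0.90 in females and -0.29 in males. Among them Sgk1, a kinase induced by the hormone, differed by 1.28 in females and -0.56 in males, and by 0.65 in females without ChowCR replicate 4, a female at 7.70 FPKM.

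The other diets place these levels. For Pdia6 the median was 35.9 FPKM on 5% P, 31.9 on 10% P and 41.8 on 15% P, and 26.6 FPKM on ChowCR and 31.5 on Chow. For Chordc1 it was 23.3 FPKM on 5% P, 22.5 on 10% P and 26.2 on 15% P, and 16.5 FPKM on ChowCR and 21.6 on Chow. In both genes the ChowCR median was the lowest of the 5 and the 15% P median the highest, while the ranges of all diets other than ChowCR overlapped that of 15% P.

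Dnajb11 had medians of 18.9 FPKM on 5% P, 19.3 on 10% P and 21.1 on 15% P, and 14.1 FPKM on ChowCR and 13.9 on Chow. The 2 chow diets were close to each other there, as they were for Xbp1, at 15.1 FPKM on ChowCR and 16.1 on Chow. For the median of the ER list, 15% P minus Chow was 0.36 and ChowCR minus Chow was -0.12. For the heat shock list 15% P minus Chow was 0.20 and ChowCR minus Chow was -0.10. These differences share libraries with each other and with the comparison of 15% P and ChowCR.

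For Pabpn1 the ChowCR libraries stood above those of each other diet. The median of ENSMUST00000022808.11 was 26.6 FPKM on 5% P, 27.2 on 10% P and 23.8 on 15% P, and 34.3 FPKM on ChowCR and 25.2 on Chow. The lowest ChowCR library, at 32.3 FPKM, was above the highest of each other diet, which was 31.5 FPKM on 5% P. Hp1bp3 had medians of 8.52 FPKM on 5% P, 8.21 on 10% P and 8.45 on 15% P, and 14.1 FPKM on ChowCR and 9.93 on Chow. Aldoa had 726, 738 and 705 FPKM on the P diets from low to high, 810 FPKM on ChowCR and 637 on Chow.

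For Mpc2 the 15% P median was the lowest of the 5. Its median was 40.1 FPKM on 5% P, 40.2 on 10% P and 25.9 on 15% P, and 42.9 FPKM on ChowCR and 41.5 on Chow. The difference of 15% P from 5% P was -0.54, as was that from 10% P (limma, adjusted p = 0.77 and 0.93). No transcript passed between 15% P and 5% P or between 15% P and 10% P (limma, 0% called each), with 199 (4.47%) at an unadjusted p under 0.05 against 5% P and 229 (5.15%) against 10% P.

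**Figure D5:**
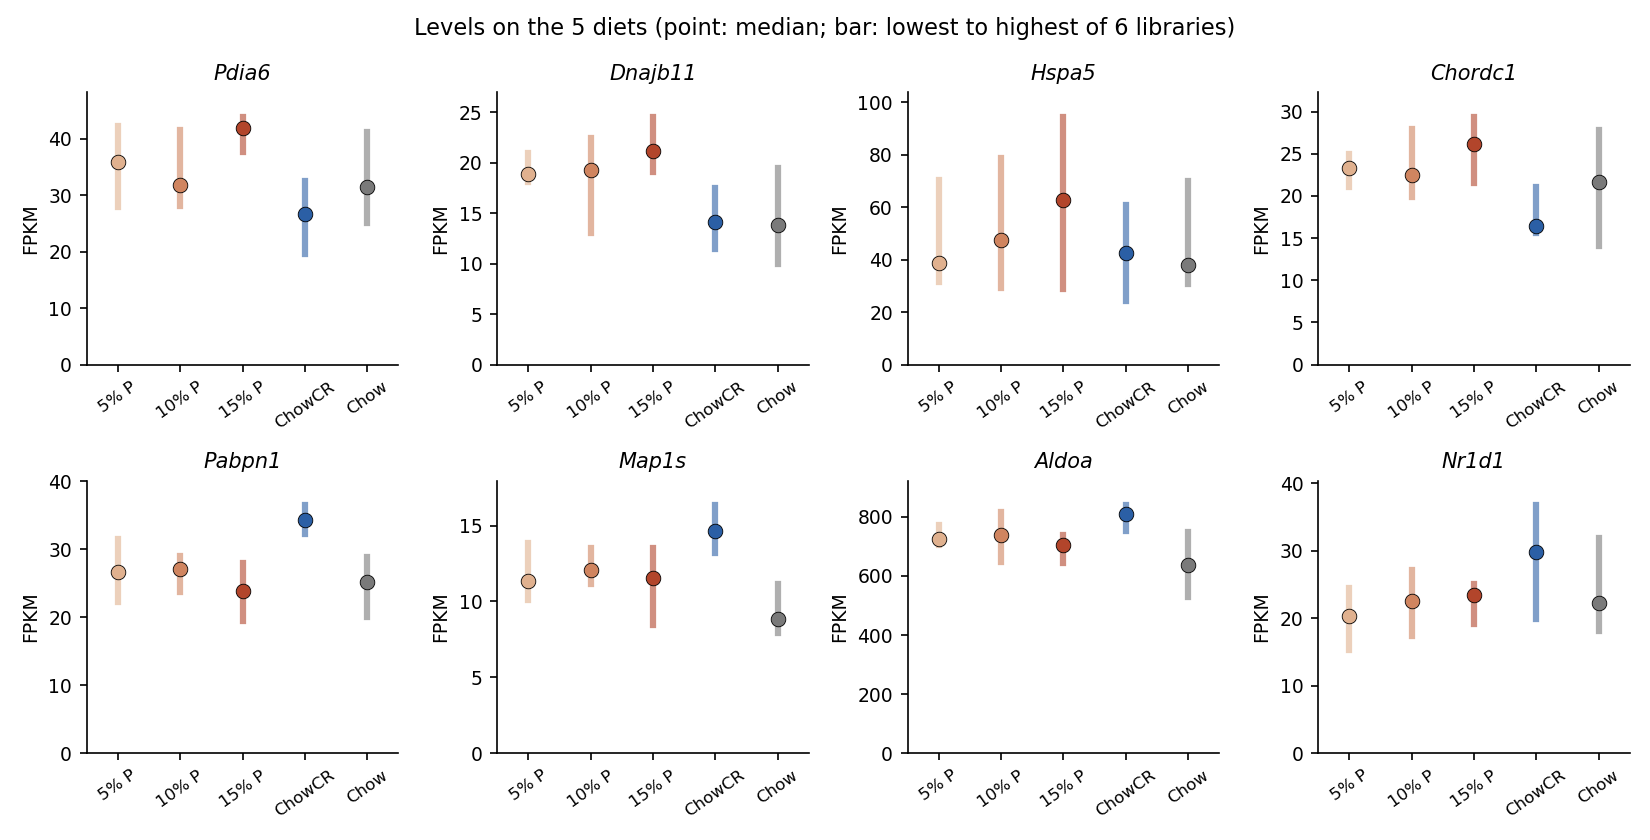
FPKM of 8 genes on the 5 diets, with the median as a point and a bar from the lowest to the highest of 6 libraries; for Pabpn1 the transcript ENSMUST00000022808.11 is drawn. The 15% P and ChowCR bars are separate for Pdia6, Dnajb11, Chordc1, Pabpn1 and Aldoa.

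Listing of a transcript, as opposed to its level, gave no call. Of 29636 transcripts listed in 1 to 11 of the 12 libraries, none passed Fisher's exact test with Benjamini-Hochberg adjustment (two-sided), and 56 (0.189%) had an unadjusted p under 0.05. The smallest p that 6 against 6 libraries can give is 0.00216. It was reached by transcripts of Gabpa, Sdad1 and Gm8614, listed in 6 libraries of 15% P and 0 of ChowCR, and of Cox18, listed in 0 of 15% P and 6 of ChowCR. The Gabpa transcript, of a transcription factor for mitochondrial genes, was at 1.63 to 2.61 FPKM where listed. The 4 were singled out after their values were seen.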

How the data were processed

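RNA of whole hippocampus was sequenced from poly(A) libraries made with a stranded kit and read from 1 end, per the labels' protocols. The deposited values are FPKM per transcript. The submitters' processing notes name mm10 and, as tools, DESeq2 1.16.1, featureCounts 1.4.6, StringTie 1.2.4, TopHat2 2.0.14 and bcl2fastq 2.18.0. Which step each did, and the strand setting, are not given in the sources used here. Values of overlapping and antisense genes are therefore uncertain. A transcript without a value was not listed, which is not the same as 0. Of the 4447 tested transcripts 887 held at least 1 exact 0, which can stand for an estimate that failed. With no counts, depth is unknown and no counting interval can be given. P-values measure the spread between these libraries.

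Transcripts listed throughout the 30 libraries, at 1 FPKM or more on average, were tested in limma 3.58.1 (R 4.3.3) on the scale log2(FPKM + 0.5), with trended variance, sex as covariate and 1 spread shared by all diets. Tests were two-sided, with Benjamini-Hochberg adjustment and a threshold of 0.05, and the procedure was tested on simulated data. Where a gene in a list had several tested transcripts, the one with the highest mean stands for it. Named genes are up to 12 higher and 12 lower by the smallest p (predicted genes, pseudogenes and transcripts named by location counted only), up to 4 members of each list by the smallest p, all tested ER, heat shock and cold-responsive members, and a few fixed genes. The comparison, the lists and the fixed genes were chosen with earlier results of these data known. Annotation is GENCODE M21 (GRCm38), and promoters are from RefSeq. Alternatives were other pseudocounts (0.1 and 1), filters, scalings and fits, the sexes fitted separately, and libraries left out one at a time.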

Additional observations from a re-analysis of the deposited data

Results flagged for a closer look

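In 17 of 146 groups of 6 libraries, for the transcripts named above, 1 library lay far from the other 5. Its gap to the nearest, divided by the whole range on the log2 scale, was above the critical value of Dixon's test, and chance alone flags about 1 group in 20. Cdc40 was highest in ChowCR replicate 1, at 18.3 FPKM beside 10.8 to 12.9 FPKM in the others (gap 0.67 of the range). Sox12 was highest in ChowCR replicate 5, at 7.13 FPKM beside 4.32 to 4.78 FPKM in the others (gap 0.804 of the range). Fam168b was highest in ChowCR replicate 2, at 7.42 FPKM beside 4.06 to 4.53 FPKM in the others (gap 0.82 of the range). Gripap1 was highest in ChowCR replicate 2, at 5.96 FPKM beside 0.37 to 1.06 FPKM in the others (gap 0.709 of the range). Manf was highest in ChowCR replicate 3, at 9.61 FPKM beside 3.26 to 4.50 FPKM in the others (gap 0.712 of the range). Dlat was highest in ChowCR replicate 1, at 19.007 FPKM beside 8.196 to 10.9 FPKM in the others (gap 0.67 of the range). St13 was highest in ChowCR replicate 6, at 39.4 FPKM beside 13.4 to 16.6 FPKM in the others (gap 0.804 of the range).

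Low libraries made up the rest. Ndufa6 was lowest in 15% P replicate 6, at 40.2 FPKM beside 66.4 to 81.6 FPKM in the others (gap 0.708 of the range). Rtn3 was lowest in ChowCR replicate 4, at 53.3 FPKM beside 169 to 226 FPKM in the others (gap 0.797 of the range). Tmem119 was lowest in ChowCR replicate 4, at 0.28 FPKM beside 6.37 to 10.4 FPKM in the others (gap 0.824 of the range). Fos was lowest in 15% P replicate 4, at 2.99 FPKM beside 10.2 to 12.024 FPKM in the others (gap 0.875 of the range). Hexa was lowest in ChowCR replicate 1, at 11.4 FPKM beside 15.999 to 18.5 FPKM in the others (gap 0.694 of the range). Olig1 was lowest in ChowCR replicate 5, at 19.1 FPKM beside 31.016 to 40.2 FPKM in the others (gap 0.651 of the range). Pdia3 was lowest in 15% P replicate 6, at 40.1 FPKM beside 78.2 to 106 FPKM in the others (gap 0.688 of the range). Hspa1a was lowest in ChowCR replicate 6, at 0 FPKM beside 4.50 to 6.12 FPKM in the others (gap 0.891 of the range). Hspa1b was lowest in 15% P replicate 3, at 0 FPKM beside 4.69 to 8.58 FPKM in the others (gap 0.807 of the range). Sgk1 was lowest in ChowCR replicate 4, at 7.70 FPKM beside 25.6 to 33.5 FPKM in the others (gap 0.813 of the range). Without the library in question the differences of these transcripts kept their sign, except for Hspa1b (0.18 without it, -0.48 with it) and Sgk1 (-0.031 without it, 0.36 with it). They moved by over 1.5 times also for Ndufa6 (to -0.16), Tmem119 (to 0.33), Fos (to -0.37), Hexa (to 0.12), Hspa1a (to 0.27) and St13 (to 0.61).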

How the results depend on the processing

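No transcript was called in 15% P against ChowCR, and alternatives gave few calls: 1 at a minimum mean of 5 FPKM, 1 with no minimum, 1 after median-ratio rescaling, 1 in females alone (Sdc2, -1.58, limma, adjusted p = 0.015), 2 with array weights, 3 among transcripts above 0 in every library, and 0 to 4 when 1 library was left out. With the 12 libraries alone the smallest adjusted p was 0.15 (limma). The 4 came without 15% P replicate 6 (Pabpn1, Gm14121, Gm15525 and Gm8641) and 1 each without 15% P replicate 2 (Pabpn1), 15% P replicate 5 (Gm14121) or ChowCR replicate 1 (Htra1). For 15% P against 5% P and against 10% P, leaving out 1 library gave 0 to 1 calls, the 1 being Gm14121 without 15% P replicate 5 or 6.

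Of 73 transcripts followed, 61 kept their direction throughout. Signs reversed for summed FPKM in Far1 (-0.11), Fam168b (0.041), Gripap1 (-0.53) and the second Pabpn1 transcript (-0.19); in females alone in St13 (-0.32), Ttr (1.35) and Dnajb4 (-0.053); and in males alone in Sgk1 (-0.56), Dnajb1 (-0.37), Cacybp (-0.073), the second Pabpn1 transcript (-0.0052) and Gfap (-0.054). The cause was not tested. Leaving out 1 library gave ranges across 0 for Hspa1b (-0.69 to 0.18), Sgk1 (-0.031 to 0.65), Cacybp (-0.048 to 0.089), the second Pabpn1 transcript (-0.034 to 0.053) and Gfap (-0.050 to 0.092). No paired analysis was possible because the labels give the groups no shared replicate numbers. FPKM without counts leave the depth, and with it the precision of single values, unknown.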

Other observations

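Ly6e was the only gene with tested transcripts at an unadjusted p under 0.05 in both directions. One transcript averaged 7.91 FPKM on 15% P and 6.28 FPKM on ChowCR, and another averaged 9.14 FPKM on 15% P and 15.4 FPKM on ChowCR. It was singled out after its values were seen.

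Further transcripts of listed genes had an unadjusted p under 0.05 in the fit restricted to the 12 libraries (limma, adjusted p = 0.75) and were likewise seen before they were named. Bdnf, the neurotrophin, had a median of 3.48 FPKM on 15% P and 6.20 FPKM on ChowCR. Psmd13, a lid subunit of the proteasome, had 17.2 FPKM on 15% P and 20.1 FPKM on ChowCR. Lamp2, a lysosomal membrane protein, had 5.31 FPKM on 15% P and 4.37 FPKM on ChowCR. Ndufv3, a subunit of complex I, had 5.18 FPKM on 15% P and 7.76 FPKM on ChowCR. Other transcripts of these genes, tested over all 30 libraries, differed the other way: Psmd13 by 0.07, Lamp2 by -0.13 and Ndufv3 by 0.32. That of Ndufv3 averaged 43.7 FPKM on 15% P and 33.6 FPKM on ChowCR. Atp5j, also of oxidative phosphorylation, had a median of 1.80 FPKM on 15% P and 0.72 FPKM on ChowCR (limma over the 12 libraries, adjusted p = 0.73).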
